A study of Mus musculus with 2 samples.

Results

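The interferon regulatory factors (IRFs) measured here were Irf1, Irf2, Irf3, Irf4, Irf5, Irf7, Irf8 and Irf9, and they are described together with Ifnb1, the gene of interferon beta. These 9 genes were taken by their symbols from 55536 mouse genes, and all 9 were found. Ribosomal-RNA-depleted total RNA was sequenced from the nuclei of bone-marrow-derived macrophages, primary cells grown from the marrow of C57BL/6J mice. The cells were exposed to Lipid A at 100 ng/ml for 12 h, kept without it for 12 h after washing, and exposed again at 100 ng/ml for 120 min. Lipid A is the membrane anchor of bacterial lipopolysaccharide and the ligand of the receptor TLR4. The labels give 1 group of 2 biological replicates, with no allele or transgene and no age or sex, and the fraction is called nucleus in one place and nucleoplasmic in the other. Both replicates carry 1 donor label, so their spread may be technical in part. They also differed in starting RNA, 1 µg for replicate 1 and 500 ng for replicate 2, and input and replicate cannot be told apart. No untreated or singly exposed cells were analysed here, so the values are levels in this 1 condition and not responses to Lipid A.

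IRFs are transcription factors that bind DNA repeats built on the core GAAA. In macrophages TLR4 signals through the adaptor TRIF to the kinases TBK1 and IKKε, which phosphorylate IRF3 and IRF7, and these enter the nucleus and act with NF-κB and AP-1 factors at the Ifnb1 promoter. Secreted interferon beta then binds its receptor, and the complex ISGF3, which holds STAT2 and IRF9, drives interferon-stimulated genes, Irf7 among them. IRF1 is an inducible activator, IRF2 often opposes it at the same sites, IRF5 acts downstream of the adaptor MyD88, and IRF8 and IRF4 are lineage factors that bind DNA with partners such as PU.1.

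The gene tables gave 28450309 expected counts on genes in replicate 1 and 16940220 in replicate 2. Genes of the mitochondrial genome took 4.15% and 10.3% of these counts, and short structural RNAs took 72.8% and 53.9% of the TPM, so the TPM of other genes was set partly by these classes. The label macrophage was checked against marker lists. All 7 macrophage markers were detected, meaning TPM 1 or more in both libraries, and their summed level was 2398 TPM in replicate 1 and 2472 TPM in replicate 2. Detected markers of other cells were Cd22 (7.17 and 5.45 TPM) among 7 of B and plasma cells, Bst2 (245 and 92.0 TPM) and Tcf4 (22.3 and 50.5 TPM) among 7 of plasmacytoid dendritic cells, and Cd4 (13.9 and 13.45 TPM) among 7 of T and NK cells. Bst2 is itself an interferon-induced gene of many cell types. None was detected among 6 of conventional dendritic cells and 6 of neutrophils. These calls and the counts below used the gene tables. By the second tool, the authors' other transcript estimates, the T cell marker Cd3d was detected as well (1.00 and 5.57 TPM). Jchain, Ccr9 and Zbtb46 passed TPM 1 there in replicate 2 only, at 2.19, 1.83 and 1.05 TPM. Low counts were present for several undetected dendritic markers, among them Zbtb46 (74 and 76), Flt3 (25 and 5), Xcr1 (23 and 13) and Clec9a (15 and 1) of conventional dendritic cells, and Ccr9 (105 and 69) and Siglech (12 and 5) of plasmacytoid ones. The listed markers with 0 counts in both libraries were Cd79a, Klk1, Ly6d, Cd209a, Cd3e, Cd3g, Ncr1, Klrb1c, Elane, Ly6g and Camp. A count of 0 allows up to 3 counts, or a CPM of 0.105 in replicate 1 and of 0.177 in replicate 2. Floors and count intervals given here cover counting error only.

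Of the 9 genes 8 were detected, and Irf4 was not. Irf7 and Irf1 stood well above the rest, a middle set of Irf5, Irf8, Irf3, Irf2 and Irf9 lay between 17.0 and 37.6 TPM, and Ifnb1 was lower. By the second tool the middle set lay between 8.26 and 49.0 TPM, and Ifnb1 was again lower. Counting coding transcripts only, the mean of Ifnb1 (10.1 TPM) was above that of Irf3 (8.82 TPM) and below that of Irf2 (11.4 TPM). The ranges of Ifnb1 and each of these 2 genes overlapped. By comparison, 8726 of 22028 protein-coding genes, 39.6%, were detected, and the median protein-coding gene had 0.235 ± 0.0778 TPM (SD, n = 2). Among the detected protein-coding genes Irf7 ranked 71 in replicate 1 and 151 in replicate 2, and Irf1 ranked 166 and 238. TPM is a length-corrected level, so genes can be compared on it as far as the length estimated for each gene holds. That length depends on the transcripts to which the reads were assigned, as for Irf3 below. Where a pair of values stands without a label, replicate 1 comes first and replicate 2 after it. A level in bulk RNA cannot separate fewer cells that make an RNA from less RNA per cell.

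**Figure D1:**
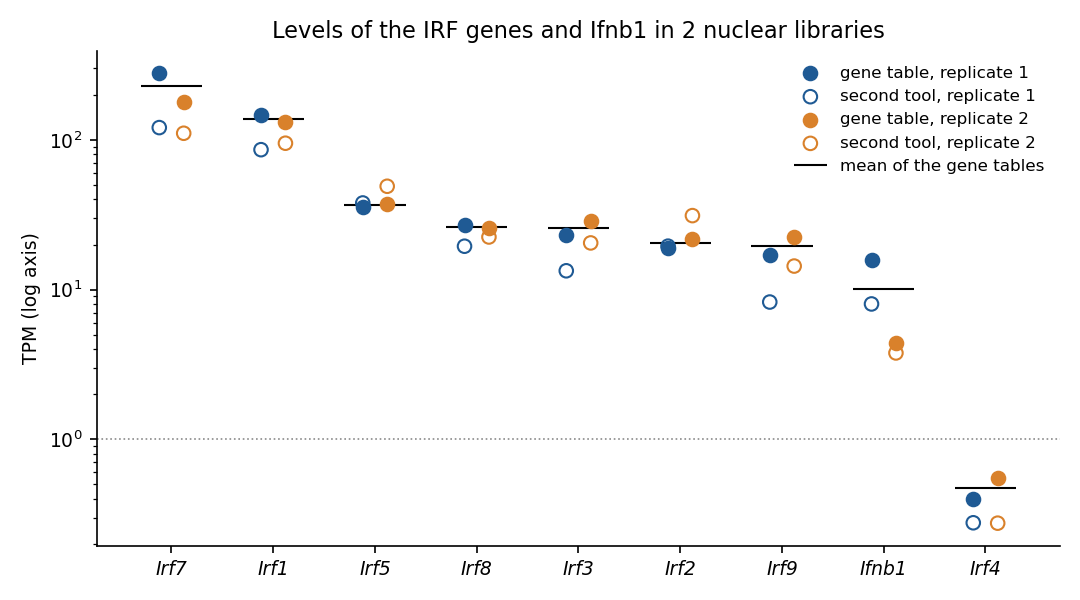
TPM of each IRF gene and of Ifnb1 on a log axis, by library (colour) and by tool (filled for the gene tables, open for the second tool), with the gene-table mean as a bar. Irf7 and Irf1 lie at 86.0 TPM or more in every estimate, Irf4 lies below the dotted line at TPM 1, and the Ifnb1 points are the farthest apart between libraries.

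Irf7 is the interferon-induced member that amplifies the production of type I interferon. The gene (ENSMUSG00000025498.15, mm10 chromosome 7, 141262706 to 141266481, minus strand) had 279 TPM in replicate 1 and 179 TPM in replicate 2, a mean of 229 ± 70.5 TPM (SD, n = 2). Behind these levels stood 22983 and 6312 expected counts. Its level was the highest of the 9 genes in each library, 1.65 times that of Irf1 on average. Much of that RNA was assigned to transcripts that carry an intron. Those of the annotated type retained intron took 43.9% and 51.4% of the gene's transcript TPM, and 48.4% and 58.2% by the second tool. Across the 6945 genes with such transcripts and a mean count of 10 or more, the median share was 23.6% in replicate 1 and 30.0% in replicate 2.

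The most abundant Irf7 transcript was Irf7-210, which keeps intron 5 whole and otherwise has the introns of the coding transcript Irf7-201. It took 32.5% of Irf7 TPM in replicate 1 and 31.3% in replicate 2, and 34.1% and 34.2% by the second tool. Irf7-201 followed at 27.6% and 19.7%, and the coding Irf7-203, which joins a later acceptor after that intron, at 14.6% and 14.9%. Irf7-213, which is 1 exon and keeps all 9 introns, took 4.54% and 7.98%. Of the Irf7 transcripts reaching across intron 5, those that keep it made up 41.1% ± 3.11 of the TPM (SD, n = 2), or 43.9% ± 4.67 by the second tool. Every other intron of Irf7 was kept in 6.46% to 9.60% on average. These percentages come from TPM assigned to annotated transcripts. For introns 1, 2, 4, 6, 8 and 9 the only annotated transcript that keeps them is the unspliced Irf7-213. The contrast with intron 5 therefore depends on which retained-intron transcripts are annotated. Intron 5 is 69 nt long and is the shortest of the 9. It lies between coding exons, its length is a multiple of 3, and it holds 1 stop codon in the reading frame of Irf7-201. In mouse macrophages the splicing factor BUD13 is known to counter retention of an Irf7 intron, and whether that bears on these values was not tested.

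Irf3 is present in resting cells and is activated by phosphorylation rather than by new synthesis. The gene (ENSMUSG00000003184.15, chromosome 7, 44997648 to 45002848, plus strand) had 23.0 and 28.75 TPM, a mean of 25.9 ± 4.04 TPM. These levels came from only 924 and 405 expected counts, fewer than for Irf9, whose TPM was lower in both libraries. The effective length used for Irf3 was 813 nt in replicate 1 and 671 nt in replicate 2, with much of its RNA assigned to short transcripts, and a shorter length gives a higher TPM for the same count. Retained-intron transcripts took 67.6% and 64.6% of Irf3 TPM, the largest share of the 9 genes in the gene-table tool, and 66.4% and 53.0% by the second tool. The named ones were Irf3-210 (17.2% and 22.9%), Irf3-212 (18.1% and 13.2%), Irf3-208 (11.0% and 14.8%) and Irf3-207 (15.5% and 8.28%). Of these only Irf3-207 keeps an intron whole. Irf3-210 and Irf3-208 reach into part of intron 6, and Irf3-212 into part of intron 1. Irf3-206, a short coding transcript, took 9.73% and 20.5%. With all classes but the coding one set aside, Irf3 had 8.82 ± 1.91 TPM. Irf3-207 and Irf3-209 keep intron 5, which was retained in 38.2% ± 3.77 of the TPM reaching across it, or 35.2% ± 3.21 by the second tool. That intron is 98 nt long, not a multiple of 3, with no stop codon in the frame of the reference transcript Irf3-213.

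The 2 short introns are shown with 15 bases of each flanking exon, because they carry the retention values above. They were read from Irf7-210 (mm10, chr7:141264641-141264739, minus strand) and Irf3-207 (mm10, chr7:45000532-45000659, plus strand), 5′ to 3′ along the transcript. Capitals mark the intron, which begins with GT and ends with AG in both genes, and the lower-case flanks are joined directly in the spliced coding transcript.
Irf7 intron 5: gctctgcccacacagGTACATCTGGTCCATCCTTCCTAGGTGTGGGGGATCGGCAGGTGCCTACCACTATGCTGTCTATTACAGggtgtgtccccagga
Irf3 intron 5: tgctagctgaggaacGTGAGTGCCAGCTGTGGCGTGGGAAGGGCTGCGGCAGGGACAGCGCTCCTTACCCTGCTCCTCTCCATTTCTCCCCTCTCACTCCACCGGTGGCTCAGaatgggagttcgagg
The Irf7 intron is 53.6% G and C and the Irf3 intron 65.3%.

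**Figure D2:**
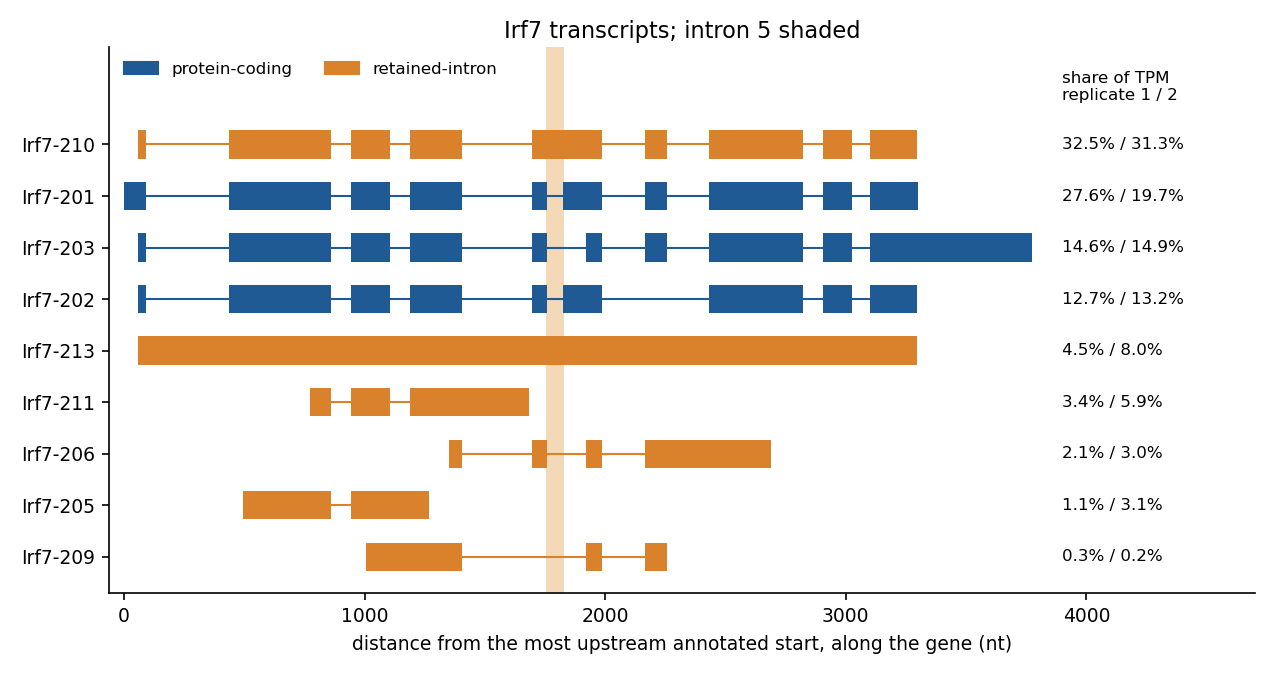
Exons (boxes) and introns (lines) of Irf7 transcripts along the gene, in nucleotides from the most upstream annotated start, coloured by annotated class, with each transcript's share of Irf7 TPM in replicate 1 and replicate 2 at the right. The shaded intron 5 is filled in Irf7-210 (32.5% and 31.3%) and Irf7-213 (4.54% and 7.98%), and spliced or not reached in the others.

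Ifnb1 is a target of these factors and the cytokine that starts the autocrine interferon loop. The gene (ENSMUSG00000048806.4, chromosome 4, 88522025 to 88522774, minus strand) has no introns and 1 annotated transcript. It had 15.8 TPM in replicate 1 and 4.38 TPM in replicate 2, a mean of 10.1 ± 8.06 TPM. The expected counts were 400 (95% exact Poisson interval 362 to 441) and 49 (36.3 to 64.8), a CPM of 14.1 in replicate 1 and of 2.89 in replicate 2. Of the 20 other interferon genes on the list, 0 were detected. Of these, 17 had 0 counts in both libraries, and the 3 with any count were Ifnk (0.29 and 1.38 TPM), Ifnz (0.04 and 0 TPM) and Ifng (0.02 and 0 TPM). The 13 Ifna genes on the list are near-identical copies whose reads the counting could split or drop, so their zeros are uncertain. The second tool gave Ifna16 0.223 and 0.689 TPM.

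The sequence before the Ifnb1 start site is shown because it is the best-known place where IRF3, IRF7 and NF-κB meet. Motifs were searched on both strands in the 250 bases before the start sites of the RefSeq promoter table (build GRCm38.p6). Positions count back from that table's start site, which for Ifnb1 lies upstream of the gene bounds given above, so other numberings of this promoter may differ. AANNGAAA, a loose spelling of an IRF site, occurred at 3 places in the Ifnb1 window, at -159, -139 and -126, and in 21.3% of 32851 promoters. The NF-κB motif occurred at -116 and in 7.25% of the promoters. No match overlapped another. The stretch runs over chr4:88522870-88522969 (minus strand), from base -175 to base -76, with both motifs in capitals.
Ifnb1 promoter: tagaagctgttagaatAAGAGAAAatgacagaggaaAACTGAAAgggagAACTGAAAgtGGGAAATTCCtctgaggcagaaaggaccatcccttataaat

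Irf1 is an early inducible activator that raises Ifnb1, antigen presentation and guanylate-binding protein genes. The gene (ENSMUSG00000018899.16, chromosome 11, 53770014 to 53778374, plus strand) had 146 and 131 TPM, a mean of 139 ± 11.0 TPM, from 12022 and 4526 expected counts. Its range did not overlap that of Irf7 or of Irf5. Coding transcripts took most of its TPM, and retained-intron transcripts took 8.60% and 11.8%, all of it Irf1-210. That transcript reaches into part of intron 3 and keeps no intron whole. Counting coding transcripts only, Irf1 had 123 ± 12.9 TPM and Irf7 120 ± 48.9 TPM, with overlapping ranges. The leading transcript Irf1-202 took 74.5% in replicate 1 and 52.3% in replicate 2, and Irf1-201, which begins at another first exon, took 6.21% and 21.2%. The second tool gave 52.6% and 43.2% for Irf1-202 and 11.8% and 22.7% for Irf1-201. Both tools therefore put a larger share of replicate 2 than of replicate 1 on Irf1-201. The short coding Irf1-207, which also reaches into intron 1 of Irf1-202, went the other way. It took 5.93% and 4.69%, and 16.2% and 8.32% by the second tool.

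The promoter of Irf1-202 is shown because NF-κB is known to act on it. The dyad TTCNNNGAA, a form that factors of the STAT family bind, occurred at -90 and in 7.02% of all promoters in the table. The NF-κB motif occurred at -13. The table's other Irf1 window, whose start site lies close to that of Irf1-201, held neither motif. The stretch is chr11:53769904-53770013 (GRCm38.p6, plus strand), from base -110 to base -1, with both motifs in capitals.
Irf1 promoter: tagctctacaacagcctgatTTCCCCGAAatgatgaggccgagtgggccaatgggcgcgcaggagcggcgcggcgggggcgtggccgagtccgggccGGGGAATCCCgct

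Irf2 binds the same elements as Irf1 and is often a repressor. The gene (ENSMUSG00000031627.9, chromosome 8, 46739732 to 46847458, plus strand) had 19.0 and 21.65 TPM, a mean of 20.3 ± 1.88 TPM, from 1894 and 1006 counts. The coding transcript Irf2-201 led with 49.8% and 43.0% in the gene-table tool. The second tool gave it 23.6% and 20.5% and put the short coding Irf2-203 first, at 34.2% and 41.7%, against 2.63% and 3.05% in the gene-table tool. In the gene-table tool Irf2-207, 1 unspliced exon that reaches into introns 5 and 6, took 14.7% and 28.0%, and Irf2-206 took 6.79% and 9.38%. Retained-intron transcripts together took 29.1% and 42.3%, but 25.9% and 20.0% by the second tool, so the tools differed in which library had more. The Irf2 promoter window held a pair of overlapping AANNGAAA matches, at -245 and -239. Of the members' windows only those of Irf2 and Ifnb1 held that spelling, beside 21.3% of all promoters in the table. The Irf2 window also held the dyad TTCNNNGAA at -224 and the NF-κB motif at -17.

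Irf5 acts downstream of MyD88 and marks inflammatory macrophages. The gene (ENSMUSG00000029771.12, chromosome 6, 29526625 to 29541871, plus strand) had 35.6 and 37.6 TPM, a mean of 36.6 ± 1.40 TPM, from 3392 and 1543 counts. It ranked behind Irf7 and Irf1 by both tools, and its range did not overlap that of Irf8. No Irf5 transcript is annotated with a retained intron. The gene-table tool put 81.4% and 82.4% on Irf5-201, 16.3% and 16.1% on Irf5-202 and 1.46% and 1.25% on Irf5-204. The second tool put 16.7% and 6.89% on Irf5-201 and 30.0% and 47.9% on Irf5-202, which differ at the first exon. It also put 41.5% and 31.8% on the short coding Irf5-203, its leader in replicate 1, which the gene-table tool listed at 0. Which Irf5 transcript led was thus not settled by these tables.

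Irf8 and Irf4 are close relatives that bind composite sites with ETS and AP-1 partners, Irf8 being the factor of the monocyte and macrophage lineage. Irf8 (ENSMUSG00000041515.10, chromosome 8, 120736358 to 120756694, plus strand) had 26.8 and 25.8 TPM, a mean of 26.3 ± 0.750 TPM, from 3299 and 1429 counts. Its range overlapped that of Irf3, its neighbour in the order. Irf8-201 led with 63.4% and 59.0%, and also by the second tool, at 34.7% and 38.0%. In the gene-table tool Irf8-207, which reaches into intron 2, took 21.4% and 29.6%, and Irf8-202 took 8.58% and 2.25%. One of the table's Irf8 promoter windows held the dyad TTCNNNGAA at -171 and -153, and the other held none of the motifs. Irf4 (ENSMUSG00000021356.10, chromosome 13, 30749226 to 30766976, plus strand) had 0.40 and 0.55 TPM, a mean of 0.475 ± 0.106 TPM. Its counts of 90 (95% exact Poisson interval 72.4 to 111) and 52 (38.8 to 68.2) were above the floor of 3 counts, so it was low and not absent. The Irf4 TPM was divided between Irf4-201 (80.0% and 33.3%) and Irf4-202 (20.0% and 66.7%), which differ by 3 nt in length, and at these counts that split is uncertain. Irf4-203 was listed at 0 in both libraries in the gene-table tool, while the second tool gave it 29.7% in replicate 1 and 0 in replicate 2.

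Irf9 is the DNA-binding subunit of ISGF3. The gene (ENSMUSG00000002325.15, chromosome 14, 55603571 to 55610030, plus strand) had 17.0 and 22.3 TPM, a mean of 19.7 ± 3.75 TPM, from 1789 and 1005 counts, and its range overlapped that of Irf2. The coding transcripts Irf9-205 (30.4% and 31.8%) and Irf9-202 (21.8% and 19.3%) led in the gene-table tool. The second tool put Irf9-202 first, at 29.0% and 25.2%, and gave Irf9-205 only 12.1% and 15.4%, below Irf9-204 (24.5% and 23.7%) and the coding Irf9-203 (21.5% and 20.6%). In the gene-table tool Irf9-204, which keeps intron 1, took 18.9% and 20.0%, and Irf9-206, which keeps introns 5 to 8, took 12.5% and 14.2%. The 2 retained-intron transcripts gave 31.3% and 34.3% of Irf9 TPM together, and 37.4% and 38.8% by the second tool. Intron 1 was kept in 22.5% ± 1.27 of the TPM reaching across it.

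**Figure D3:**
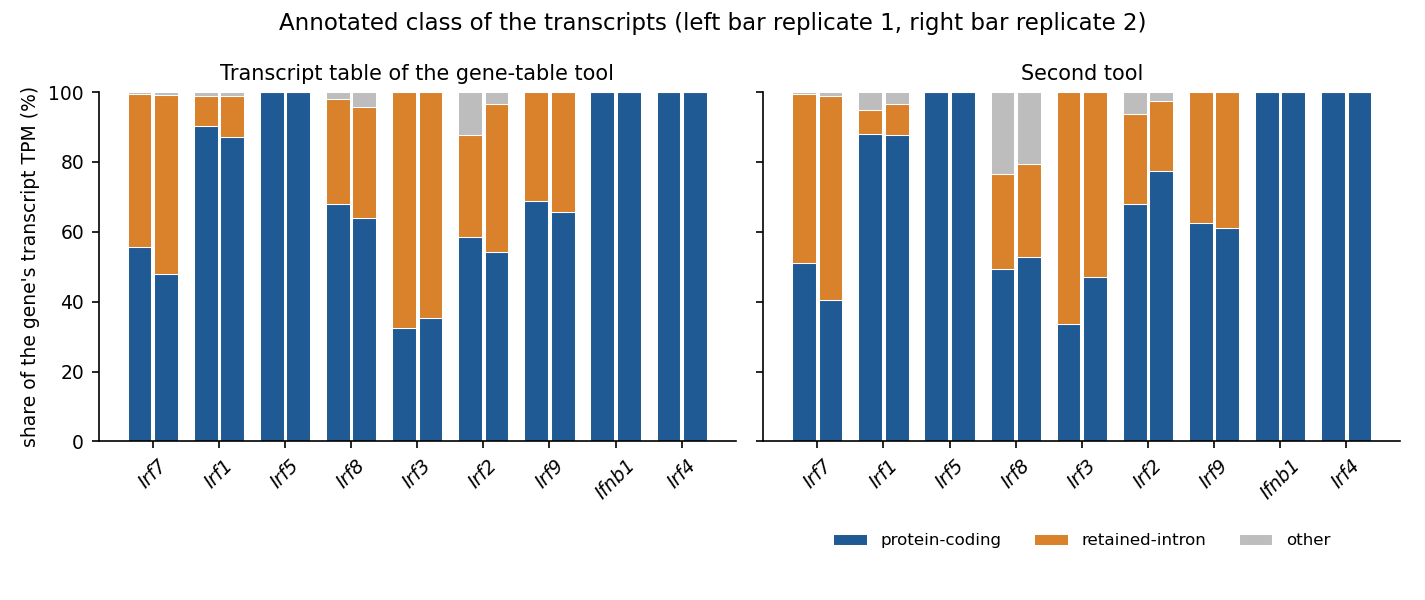
Share of each gene's transcript TPM (percent) on protein-coding, retained-intron and other transcripts, with replicate 1 as the left bar and replicate 2 as the right bar of each pair, for both tools. Irf3 and Irf7 have the tallest retained-intron parts, and Irf4, Irf5 and Ifnb1 have no transcript of that class.

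The 6 genes with retained-intron transcripts had a median share of 34.5% ± 5.41 (SD, n = 2). Irf7, Irf3 and Irf9 lay above the all-gene median in both libraries and by both tools, and Irf1 lay below it in each. Irf2 and Irf8 lay above it in the gene-table tool and below it in the second tool, whose all-gene medians were 30.5% and 35.8%. Nuclear RNA holds unspliced precursors, and the cytoplasmic RNA needed to say how much of this RNA leaves the nucleus was not analysed here.

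Genes that overlap a member on the map limit some of these values, because the strand setting of the counting is not given in the sources used here. Tnpo3 runs over 1045 nt of Irf5 on the opposite strand and had 14.4 and 27.5 TPM. Bcl2l12 runs over 1065 nt of Irf3 on the opposite strand, at 1.20 and 1.72 TPM, and Gm17334 over 907 nt of Irf1, at 16.8 and 18.4 TPM. Phrf1 meets Irf7 over 45 nt on the opposite strand, at 19.0 and 26.5 TPM. Gm45479, Gm31172 and Gm45481 lie opposite Irf2 and had at most 7.83 TPM. On the same strand, Rnf31 shares 123 nt with Irf9, at 29.6 and 27.8 TPM, and Gm20388 covers the whole of Irf8, over 20337 nt, at 7.41 and 7.22 TPM. The split of reads between Irf8 and Gm20388 is therefore uncertain.

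For each of 14698 genes the replicates were then compared by the exact binomial test (two-sided, on counts given TMM-scaled library sizes, Benjamini-Hochberg adjusted). This compares 2 libraries beyond counting error and says nothing about treatment. Of the 9 genes 8 had lower counts in replicate 2 and 0 had higher counts. Over all tested genes, 30.0% were lower in replicate 2 and 29.3% were higher. Of the 11357 tested genes that are protein-coding, as the 9 are, 4036 were lower and 2793 were higher. The median log2 ratio of the 9 genes, replicate 2 over replicate 1, was -0.61, against 0.01 for all tested genes and -0.08 for the protein-coding ones. The common biological coefficient of variation was 0.335. When libraries were scaled by their size alone, 7 of the 9 genes were called lower, the genes called lower and higher numbered 3226 and 5675 in place of 4404 and 4307, and the median of all genes shifted to 0.17.

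Ifnb1 had the largest difference of the 9, a log2 ratio of -2.43, which is 5.40-fold lower in replicate 2. Of all tested genes, 0.680% had a ratio as low or lower. Irf7 followed with -1.28 (2.43-fold lower in replicate 2) and Irf1 with -0.83. Irf8, Irf3 and Irf5 had -0.62, -0.61 and -0.55, and Irf2 had -0.33. Irf9 had -0.25, with the largest adjusted p of the 8 called genes (exact binomial test, adjusted p = 3.5e-05). Irf4, at -0.20, did not pass (exact binomial test, adjusted p = 0.55). On scaled counts the second tool gave the same direction for all 9 and called Irf4 as well. On the TPM scale the picture differs, since in the gene tables Irf3, Irf2, Irf5, Irf9 and Irf4 had the higher TPM in replicate 2. With TPM rescaled without short structural RNAs, mitochondrial genes and their nuclear copies, Irf3 (102 and 108 TPM), Irf9 (75.4 and 84.1 TPM) and Irf4 (1.77 and 2.07 TPM) were still higher in replicate 2, and Irf2 (84.2 and 81.6 TPM) and Irf5 (158 and 142 TPM) were lower there. The TPM of the second tool was higher in replicate 2 for Irf3, Irf2, Irf5 and Irf9, and also for Irf1 and Irf8 (19.5 and 22.5 TPM). Its Irf4 values were nearly equal (0.277 and 0.275 TPM). Irf7 and Ifnb1 had the lower TPM in replicate 2 by both tools. The log2 ratios of all tested genes differed by GC content, which was taken from the leading transcript of each gene. Irf1, Irf3, Irf5, Irf7 and Irf8 are 52.8% to 57.4% G and C, and genes in the same of 10 bins of GC content had median ratios between -0.49 and -0.24. Irf2, Irf4 and Irf9 are 46.8% to 49.6% G and C, and their bins had medians between -0.05 and 0.07. Ifnb1, with the lowest ratio of the 9, has the lowest GC content, 43.7%, and the genes of its bin had a median of 0.21. The part of GC content, RNA input and mitochondrial share in these differences was not tested.

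**Figure D4:**
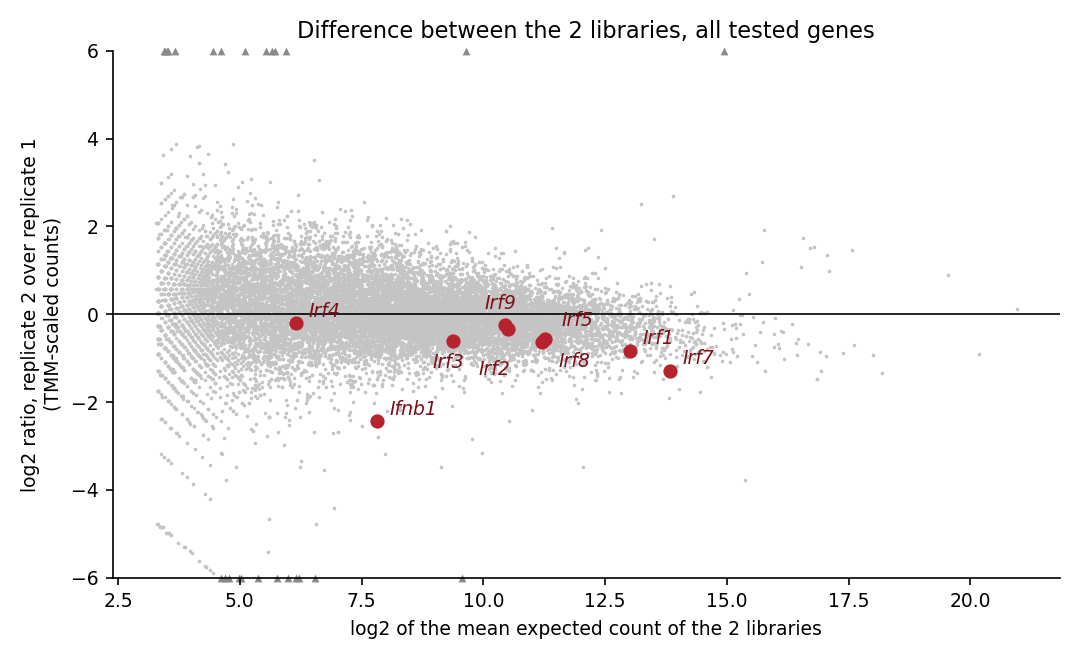
Log2 ratio of TMM-scaled counts, replicate 2 over replicate 1, against the log2 mean expected count for all 14698 tested genes (grey), with the 9 genes in red. All 9 lie below 0, Ifnb1 the lowest at -2.43, and triangles at the edges mark 26 genes beyond a log2 ratio of 6 in either direction.

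Genes around the IRFs were read from 8 lists, which together hold 99 genes when each is counted once, and 75 of these were detected. All 16 genes of the receptor and kinases upstream of IRF3 and IRF7 were detected, with a median of 19.1 ± 3.46 TPM (SD, n = 2). The highest were Ikbke, the kinase IKKε (274 and 326 TPM), Cd14, the co-receptor that passes lipopolysaccharide to TLR4 (168 and 224 TPM), and Tank, a scaffold of TBK1 and IKKε (68.4 and 87.1 TPM). All 8 partners at the Ifnb1 enhancer were detected, with a median of 22.3 ± 0.0601 TPM, led by the NF-κB gene Nfkb1 (117 and 178 TPM), the architectural factor Hmga1 (41.3 and 43.6 TPM) and the acetyltransferase Ep300 (28.1 and 39.0 TPM).

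The 5 listed genes of the interferon receptor, its kinases and ISGF3 were all detected, with a median of 52.8 ± 7.59 TPM. Stat2 (136 and 124 TPM), the receptor chain Ifnar1 (56.25 and 85.5 TPM) and the receptor kinase Tyk2 (46.05 and 58.1 TPM) led. Stat2, a partner of Irf9 in ISGF3, was thus above 100 TPM in the gene tables while Irf9 itself stayed below 23 TPM in both libraries. The second tool gave Stat2 84.5 and 103.7 TPM and Irf9 8.26 and 14.4 TPM. Among 24 target genes of ISGF3 and IRFs, 23 were detected, with a median of 130.3 ± 3.32 TPM, and 14 reached 100 TPM in both libraries. The chemokine Ccl5 (1460 and 1371 TPM), the antiviral enzyme Rsad2 (1025 and 871 TPM) and the chemokine Cxcl10 (585 and 479.8 TPM) were the highest. Cxcl9, a chemokine known for its dependence on interferon gamma, was the only target of the 24 below TPM 1 in both libraries, at 0.75 and 0.89 TPM.

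Of 10 DNA-binding and cofactor partners of IRF4 and IRF8, 8 were detected. Junb (89.5 and 42.4 TPM), Spi1, which encodes PU.1 (47.9 and 49.3 TPM), and Ikzf1 (34.7 and 46.7 TPM) led on mean TPM. Junb was below Spi1 and Ikzf1 in replicate 2. By the second tool Junb (41.8 and 28.6 TPM) was below Spi1 (57.6 and 59.6 TPM) in both libraries. Spib, the PU.1 relative of lymphoid and plasmacytoid cells, was at 0.22 and 0.37 TPM. The 3 IRF2-binding proteins were detected at lower levels, Irf2bp2 at 23.0 and 15.5 TPM, Irf2bpl at 4.48 and 3.08 TPM and Irf2bp1 at 2.70 and 2.20 TPM. Of 15 negative regulators of IRFs and of the interferon receptor, 14 were detected, led by the ubiquitin-editing enzyme Tnfaip3 (168 and 166 TPM), Trim30a (109.6 and 188 TPM) and the cytokine signalling inhibitor Socs3 (100.1 and 57.8 TPM). Nlrc3 was below TPM 1, at 0.53 and 0.57 TPM.

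Between the libraries, the count test called 10 of the 16 upstream genes, 6 of the 8 enhancer partners, all 5 listed receptor and ISGF3 genes and 23 of the 24 targets lower in replicate 2, beside 30.0% of all tested genes. Higher counts in replicate 2 were called for 0, 1, 0 and 0 of these, beside 29.3% of all. The median log2 ratios were -0.18, -0.43, -0.62 and -0.63. Lower counts were also called for 8 of the 10 partners of IRF4 and IRF8, all 3 IRF2-binding proteins and 11 of the 15 negative regulators, and higher counts for 1, 0 and 3 of them. All 7 macrophage markers were lower as well, with a median of -0.74, so the direction was shared by genes outside the interferon lists.

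**Figure D5:**
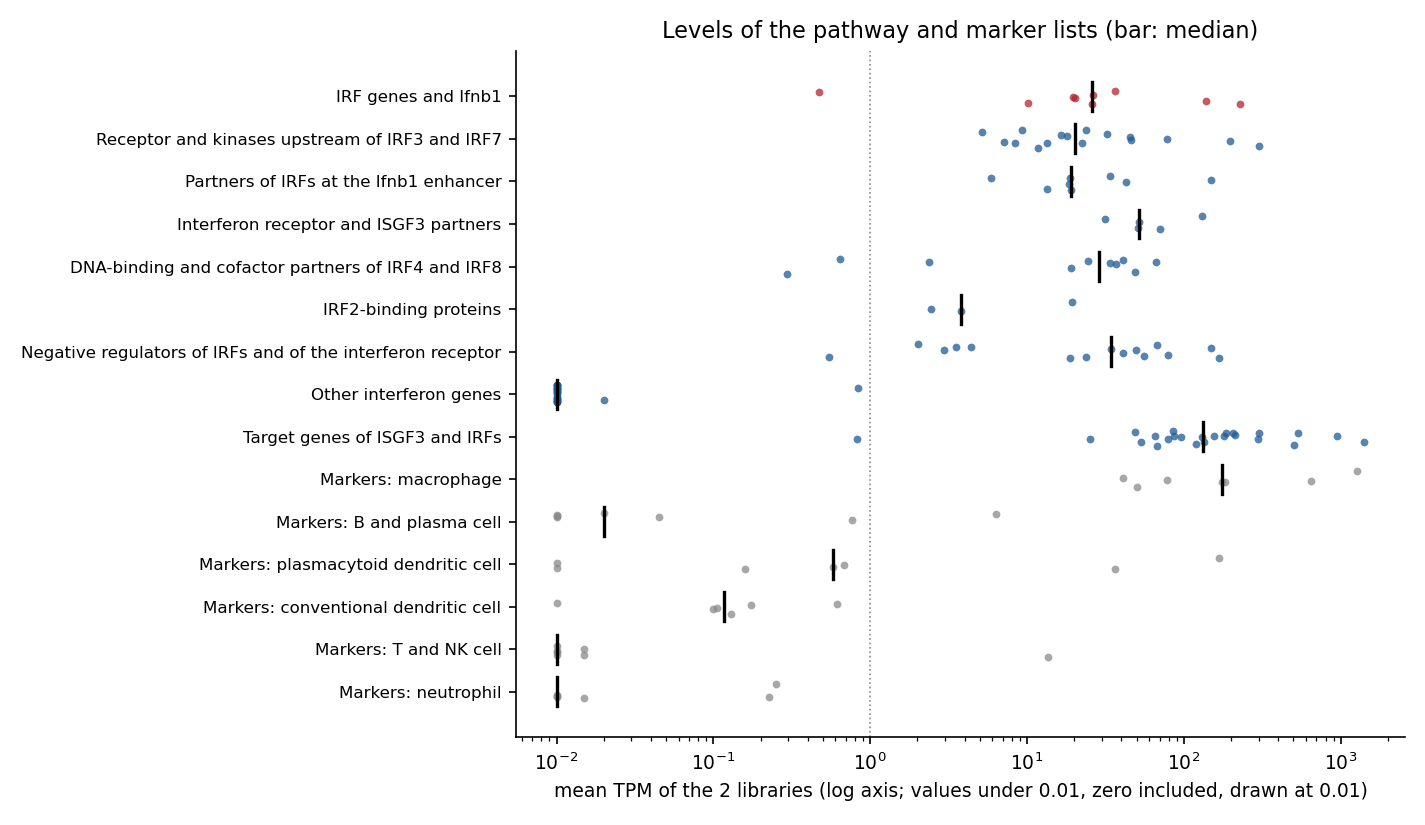
Mean TPM of the 2 libraries (log axis) for every gene of the IRF set (red), the pathway lists (blue) and the cell type marker lists (grey), with the median of each list as a bar and TPM 1 as the dotted line. The target genes have the highest median of the pathway lists, and the other interferon genes lie at or near 0.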

How the data were processed

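The authors' gene and transcript tables, per the file headers and the notes deposited with them, give an expected count (an estimate, often not whole) and TPM on mm10 with GENCODE M21, with column names of RSEM. Their other deposited transcript table, here the second tool, gives estimated counts and TPM under column names of kallisto. The deposited credibility bounds of TPM, treated as a score, support no result. Aligner, versions and strand are not given in the sources used here. Rows naming no mouse gene (1.79% and 0.318% of counts) were left out. Counts were rounded and TMM-scaled in edgeR 4.0.16 (R 4.3.3), with a prior count of 0.5 for ratios. The exact binomial test took genes of mean count 10 or more, at an adjusted p of 0.05. It was checked on simulated counts that held counting error only, so that check does not cover spread between libraries. Introns are numbered along the coding transcript of at least 1000 nt with the highest mean TPM. Sequences came from the GENCODE transcripts and the RefSeq promoter table (GRCm38.p6), where all 9 genes were matched. Members and lists were chosen with earlier results of these data known. A few pathway genes are not reported here. Named are all members, their 3 highest transcripts and retained-intron transcripts at 10% or more, and overlapping genes. Also named are each list's 3 genes of highest mean TPM in the gene tables, and those below TPM 1 if 3 or fewer. Software was Python 3.11.15 with matplotlib 3.10.9, scipy 1.17.1, pandas 2.3.3 and numpy 2.4.6.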

Additional observations from a re-analysis of the deposited data

How the results depend on the processing

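The median level over the 9 genes was 24.4 ± 1.93 TPM. It moved to 20.97 TPM in the second tool and to 99.6 TPM with TPM rescaled without short structural RNAs, mitochondrial genes and their nuclear copies, and was 24.2 TPM as posterior mean. With each replicate left out it was 23.0 to 25.8 TPM. The median retained-intron share over 6 genes, 34.5%, stayed within its SD in the second tool (32.5%) and by expected counts (36.6%). The all-gene median was 26.8% on TPM, 33.1% in the second tool and 15.7% by expected counts. The median of the 6 genes was thus above the all-gene median on TPM and expected counts, and slightly below it in the second tool. With a replicate left out the median of the 6 genes was 30.6% to 38.3%. With 2 libraries, leaving 1 out cannot move a mean beyond its SD, so those values do not test stability. Single genes moved more, 5 of the 6 beyond their SD in the second tool and 4 by expected counts, where Irf1 had 3.53% in place of 10.2% and Irf3 53.8% in place of 66.1%. The leading transcript's median share over 8 genes was 47.4% and moved to 27.8% in the second tool, with 38.1% to 56.6% when a replicate was left out. Of the 9 genes 8 were called lower in replicate 2, and 7 to 9 under the 5 alternatives. Irf9 missed the threshold with library size alone (log2 ratio -0.08, exact binomial test, adjusted p = 0.20), and Irf4 passed it in the second tool (log2 ratio -0.90, exact binomial test, adjusted p = 0.00013). The genes called numbered 8711, and 14766 of the 23709 tested in the second tool; the cause was not tested. The pathway genes detected numbered 75, and 74 to 77 under the alternatives. No paired analysis was possible because there is 1 group. With 2 libraries, an SD is a rough guide, and depth limits Irf4 and Ifnb1 most, at 52 and 49 counts in replicate 2.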
